A study of Mus musculus with 7 samples.

Results

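The 6 genes described are Mbp, Mobp, Mog, Mag, Pmp22 and Cnp, a listed set of central and peripheral myelin genes, measured in sorted thymic medullary epithelial cells. They were chosen by name, and each was found among the 19937 genes that had a probe set with 1 gene symbol on the array. Each of the 6 had only 1 such probe set. The cells came from 7 samples in 2 groups. The 4 reconRAG1KO samples, the control of the series, came from NOD mice null for RAG1, and the 3 reconSCID samples came from NOD mice with the SCID mutation in DNA-PK. Mice of both groups had been irradiated with 200 rad and, 6 h later, given bone marrow by injection into the peritoneum as pups of 2 to 4 days, and their thymi were taken 6 to 8 weeks after the transfer. From thymi digested with collagenase and dispase, medullary epithelial cells were sorted that carried much MHC class II. The titles call the samples biological replicates. The genotype of the donated marrow, the sex of the mice and how many thymi went into a sample are not given in the sources used here, and if replicates were not separate animals, the p-values measure only the spread between these samples.

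Myelin is the stack of glial membrane that insulates axons, made by oligodendrocytes in the brain and spinal cord and by Schwann cells in peripheral nerve. Several of its proteins are targets of T cells in demyelinating autoimmune disease and in its animal model, experimental autoimmune encephalomyelitis, which is commonly induced in NOD and other mice with peptides of these proteins. Medullary epithelial cells with high MHC class II express many genes of other tissues, part of them through the regulator Aire, and display the products to developing T cells. DNA-PK is a DNA repair kinase active in most cells that is also known as a binding partner of Aire. The comparison therefore asks how expression in these cells differs between mice with defective DNA-PK and mice null for RAG1. Without a group that has neither mutation, the effects of the SCID mutation and of the loss of RAG1 cannot be told apart.

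The genes differ in where they are used. Mog, an immunoglobulin-domain protein related to the butyrophilins, and Mobp, a small basic protein, are made chiefly by oligodendrocytes. Mag, a sialic acid-binding lectin of the Siglec family, lies on the axon-facing membrane of myelin. Mbp, the basic protein that compacts the membrane, comes from a gene that also yields the golli transcripts of immune and other cells, and its single probe set was not resolved into these forms. Pmp22, a protein with several membrane-spanning segments and a constituent of peripheral myelin, is also made in epithelia and fibroblasts, and Cnp, a cyclic nucleotide phosphodiesterase of myelin-forming cells, is found at lower levels in many cells.

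Start regions of Mog, Pmp22 and Cnp are shown because they hold few or many CG dinucleotides, a feature in which promoters of narrowly and of widely used genes commonly differ. The RefSeq promoter table (GRCm38.p6) held 5 of the 6 genes, Mobp, Mog, Mag, Pmp22 and Cnp, with 10 start sites in all. Each window is the 250 bases before an annotated start, written from 5′ to 3′ on the strand of the gene, and capitals mark CG dinucleotides. The windows lie at chr17:37023399-37023648 (minus strand) for Mog, at chr11:63128732-63128981 (plus strand) and chr11:63131207-63131456 (plus strand) for the first and second annotated starts of Pmp22, and at chr11:100574689-100574938 (plus strand) for Cnp.
Mog: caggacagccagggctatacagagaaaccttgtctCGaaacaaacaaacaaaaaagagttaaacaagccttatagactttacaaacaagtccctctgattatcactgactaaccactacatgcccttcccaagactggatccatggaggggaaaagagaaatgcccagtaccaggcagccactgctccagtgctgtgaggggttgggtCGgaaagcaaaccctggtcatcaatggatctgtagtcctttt
Pmp22, first start: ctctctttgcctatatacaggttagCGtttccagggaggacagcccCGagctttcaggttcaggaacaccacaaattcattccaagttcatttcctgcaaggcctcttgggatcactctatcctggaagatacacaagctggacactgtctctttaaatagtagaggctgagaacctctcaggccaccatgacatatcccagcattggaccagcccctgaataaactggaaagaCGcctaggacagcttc
Pmp22, second start: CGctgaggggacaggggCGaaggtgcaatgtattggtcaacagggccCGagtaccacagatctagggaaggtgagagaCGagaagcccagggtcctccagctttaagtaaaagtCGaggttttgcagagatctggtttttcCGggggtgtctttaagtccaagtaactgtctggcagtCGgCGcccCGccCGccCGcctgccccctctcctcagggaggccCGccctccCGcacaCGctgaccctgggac
Cnp: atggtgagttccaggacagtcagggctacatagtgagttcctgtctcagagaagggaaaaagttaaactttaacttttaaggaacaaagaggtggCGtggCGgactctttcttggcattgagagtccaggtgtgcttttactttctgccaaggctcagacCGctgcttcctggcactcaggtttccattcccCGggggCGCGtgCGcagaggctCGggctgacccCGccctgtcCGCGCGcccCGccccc

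The Mog window held 2 CG dinucleotides, and 18.8% of the 32851 windows in the table held fewer. The Mobp window held 4 and the Mag windows 2 to 3, against a median of 6 over all windows. The Cnp window held 13, more than 68.5% of windows. Pmp22 combined both kinds, with 3 at its first start, 14 at each of the next pair, and 27 at the last, which was more than 91.4% of windows. Pmp22 is known to use different promoters in Schwann cells and in other tissues, and its 1 probe set does not tell which start was in use here. The GC box GGGCGG, counted on both strands, was present in 32.7% of windows, and among the members in the Cnp window (2 matches) and in the windows of the second and the last Pmp22 start (3 each). The Sox-type letters ACAAAG, on both strands, were present in 16.5% of windows, among them Mobp with 6 matches, Cnp with 1 and the first and second Mag starts with 1 each. Both are matches of letters and describe the sequence only.

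The arrays had median intensities of 88.6 to 96.3, and their number limits the precision. ReconRAG1KO replicate 4 and reconSCID replicate 2 stood apart. The correlation of this pair was 0.972, that of either with any of the remaining 5 arrays 0.922 to 0.947, and that among those 5 arrays 0.976 to 0.990, and 40.0% of the 34760 probe sets differed between these sets at a limma adjusted p under 0.05. Each set held both groups, and results are given over all 7 arrays, adjusted for the set (the set as a block in the fit, called the blocked value) and inside each set. Of 15 medullary epithelial markers, 15 were measured and 15 had a mean above the median of all probe sets (6.51 on the log2 scale), with Aire at 10.89 to 11.93 in reconRAG1KO and 9.73 to 11.46 in reconSCID. The log2 level of Rag1 was 7.22 to 9.0 in reconRAG1KO and 7.11 to 9.46 in reconSCID. Developing lymphocytes of the marrow also make Rag1, and SCID is a mutation of the coding sequence, so neither Rag1 nor Prkdc (7.19 to 7.34 and 7.20 to 7.66), the gene of DNA-PK, checks the labels.

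None of the 6 myelin genes passed the limma test between reconSCID and reconRAG1KO. At an adjusted p under 0.05, 0 of the 6 were called, as were 0% of all 34760 probe sets. At an unadjusted p under 0.05 there were 0 of 6, beside 3.33% of all probe sets, and each of the 6 had an adjusted p of 1. Over all 7 arrays 4 of the 6 were higher in reconSCID and 2 lower, with a median log2 difference of 0.06, while 47.6% of the 19937 genes were higher, with a median of -0.01. With the set as a block the 6 had a median of 0.04, and 1 of them, Pmp22, had an unadjusted p under 0.05, beside 12.3% of all probe sets. With the block too, 0 of 6 passed after adjustment.

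**Figure D1:**
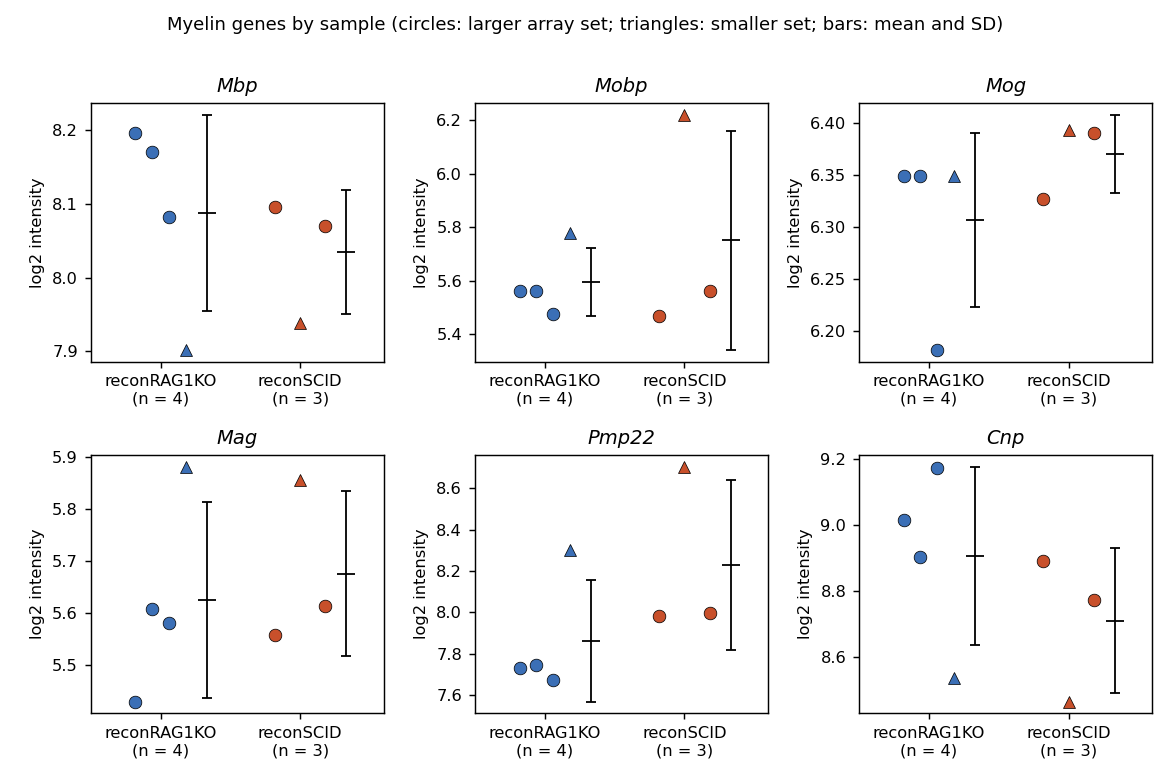
Log2 intensity of the 6 myelin genes in each of the 4 reconRAG1KO (blue) and 3 reconSCID (red) samples, each panel with its own vertical scale. Triangles are the 2 arrays that stand apart and circles the other 5, and black bars give the group mean and SD. In Pmp22 the reconSCID points lie above the reconRAG1KO points of the same symbol, and in Cnp below them.

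Pmp22 was the member with the largest difference. Its probe set (10376950) had intensities of 213, 214, 204 and 315 in reconRAG1KO replicates 1 to 4 and of 253, 418 and 256 in reconSCID replicates 1 to 3. The highest sample of each group was the one in the smaller array set, and the groups overlapped because reconRAG1KO replicate 4 lay above reconSCID replicates 1 and 3. Among the other 5 arrays both reconSCID samples lay above all 3 reconRAG1KO samples, and in the smaller set the reconSCID sample was again the higher. On the log2 scale the reconRAG1KO mean of Pmp22 was 7.86 ± 0.29 (SD, n = 4) and the reconSCID mean 8.23 ± 0.41 (SD, n = 3).

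The log2 difference of Pmp22 was 0.37 ± 0.24 (SE), a 1.29-fold higher level with a 95% interval from 0.87-fold to 1.91-fold, and its unadjusted limma p was 0.1687. The exact two-sided permutation p over the 35 possible assignments of samples to groups was 0.2857, where the smallest possible is 0.02857. With the set as a block the difference was 0.31 ± 0.06 (SE), or 1.24-fold, with an interval from 1.13-fold to 1.37-fold. The unadjusted p of that limma fit was 0.001688, among the lowest 0.702% of probe sets, and the adjusted p 0.2399. It was 0.27 within the 5 arrays (1.21-fold, interval 1.11-fold to 1.32-fold) and 0.41 within the 2 arrays (1.33-fold), which allow no test. With samples permuted only inside their array set there are 20 assignments, and the exact permutation p was 0.05, the lowest they allow. Leaving out reconSCID replicate 2 without the block lowered the difference to 0.13, and leaving out reconRAG1KO replicate 4 raised it to 0.51. With the block it stayed between 0.27 and 0.33 without each sample in turn, and the 95% interval lay above 0 in 6 of 6 distinct fits. Leaving out either array of the smaller set leaves the same contrast within the 5 arrays. These fits share most of their arrays with the full blocked fit, so their count is no separate test of it.

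**Figure D2:**
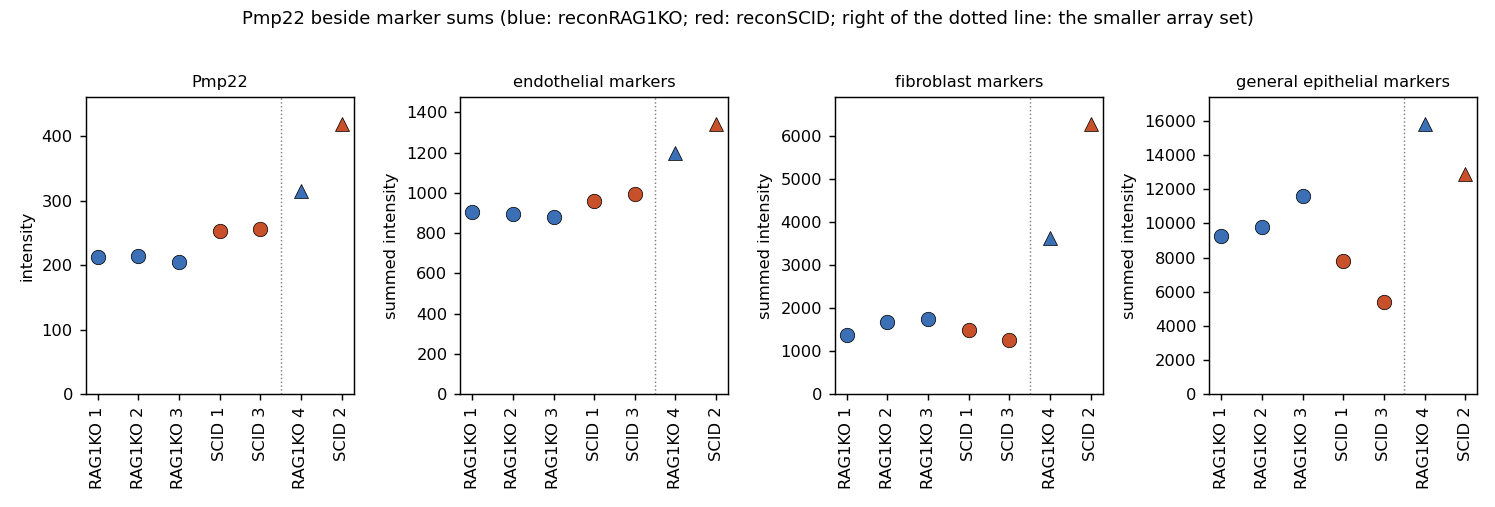
Intensity of Pmp22 and summed intensity of endothelial, fibroblast and general epithelial markers in each sample, from reconRAG1KO (blue) and reconSCID (red), with the 2 arrays of the smaller set to the right of the dotted line and axes that start at 0. Pmp22 and the endothelial sum are higher in reconSCID on both sides of the line, the fibroblast sum only on the right, and the epithelial sum is lower in reconSCID on both sides.

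Because Pmp22 is made by several cell types, the marker sums of cells that a sort could hold are given beside it. Of the 8 endothelial markers 6 were above the median of all probe sets. The 8 summed to 904, 894 and 881 in reconRAG1KO replicates 1 to 3 and to 961 and 995 in reconSCID replicates 1 and 3. In the smaller set their sum was 1200 in reconRAG1KO and 1340 in reconSCID. The sums had the same order of the groups within each set as Pmp22, but most single markers did not. Within the 5 arrays 5 of the 8 were lower in reconSCID, with a median log2 difference of -0.032, and the markers with larger differences upward were Pecam1, an adhesion protein, at 0.46 and Kdr, a receptor for VEGF, at 0.31. Within the 2 arrays 6 of 8 were higher, with a median of 0.32. With the set as a block 6 of the 8 were higher and 2 lower, with a median log2 difference of 0.09. The 8 fibroblast markers, 6 above the median, summed to 1380 to 1750 in reconRAG1KO and to 1260 and 1480 in reconSCID among the 5 arrays. In the smaller set they summed to 3630 and 6260. Their order of the groups was that of Pmp22 only in the smaller set, and their blocked median was 0.03. The part of these cells in the difference of Pmp22 was not tested, and in sorted bulk RNA fewer cells of a type and less RNA per cell cannot be told apart.

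Epithelial markers ran the other way from Pmp22 between the groups. General epithelial markers, of which 14 of 15 were measured and 14 were above the median of all probe sets, summed to 9240 to 15800 in reconRAG1KO and to 5400 to 12900 in reconSCID. With the block 14 of 14 were lower, with a median of -0.55. Among the 5 arrays 14 were lower, with a median of -0.67, and in the smaller set 10 were lower and 4 higher, with a median of -0.21. The blocked median of 11 measured B cell markers was 1.05, with 11 of 11 higher, and that of 12 dendritic cell and macrophage markers 0.21, with 11 of 12 higher. The latter pointed opposite ways in the sets, with 11 of 12 higher and a median of 0.59 among the 5 arrays, and 10 of 12 lower and a median of -0.37 in the smaller set. B cell markers were higher in 11 of 11 and in 7 of 11 cases, with medians of 1.33 and 0.25. Summed B cell markers ranged from 1150 to 1420 in reconRAG1KO and from 1370 to 4810 in reconSCID. Dendritic cell and macrophage markers summed to 8310 to 12600 and 6160 to 19900. The 10 neutrophil markers, such as S100a8 and Ly6g, were lower with the block in 10 of 10 cases, with a median of -1.33, and summed to 1310 to 9730 in reconRAG1KO and 1070 to 1840 in reconSCID. The 15 medullary epithelial markers were lower in 14 cases, with a blocked median of -0.52, and summed to 31000 to 36500 and 26200 to 33600, and the blocked difference of Aire was -0.67. Of these 15, 13 were lower among the 5 arrays and 11 in the smaller set, with medians of -0.63 and -0.12. Epcam, Krt8, Cldn3 and Cldn4 are on both epithelial lists, so the lists are not separate observations. Cd74 and H2-Aa were the highest of the medullary list, with mean log2 levels of 13.37 and 12.69 and blocked differences of -0.03 and 0.04. B cells and dendritic cells also make them, as they do Cd80 and Cd40, so the medullary sum does not measure epithelium alone. The part of the cells marked by these lists in any difference of the myelin genes was not tested.

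The near relatives of Pmp22 did not share one pattern. Of the 4 genes measured, the epithelial membrane protein genes Emp1, Emp2 and Emp3 and the lens membrane protein gene Lim2, 3 were higher and 1 lower in reconSCID, with a median log2 difference of 0.10 over all arrays and 0.19 with the set as a block. Emp1 had intensities of 174, 166, 213 and 320 in reconRAG1KO against 244, 390 and 212 in reconSCID. Its groups overlapped also within the 5 arrays. The blocked log2 difference of Emp1 was 0.30, with a 95% interval from 0.03 to 0.57 and a limma adjusted p of 0.3631. Emp2 had a blocked difference of -0.34 (interval -0.96 to 0.28) and differed by -0.65 within the 5 arrays and 0.42 within the 2 arrays. Emp3 had a blocked difference of 0.25 (interval -0.15 to 0.65) and, unlike Pmp22, stood lower in the 2 arrays of the smaller set, with a log2 difference of -2.53 to the other 5, where that of Pmp22 was 0.65.

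Cnp had the opposite sign to Pmp22. Its probe set (10381154) had intensities of 517, 479, 577 and 371 in reconRAG1KO replicates 1 to 4 and of 474, 354 and 438 in reconSCID replicates 1 to 3. Both groups had their lowest sample in the smaller array set, and over all 7 arrays the groups overlapped. Among the other 5 arrays both reconSCID samples lay below the 3 reconRAG1KO samples, the nearest pair being 474 and 479, and the reconSCID sample was also the lower one in the smaller set. The log2 level of Cnp was 8.91 ± 0.27 (SD, n = 4) and 8.71 ± 0.22 (SD, n = 3). The difference was -0.20 ± 0.18 (SE), with a fold interval from 0.65 to 1.17, an unadjusted limma p of 0.3109 and an exact permutation p of 0.3429. With the set as a block it was -0.16 ± 0.09 (SE), with a fold interval from 0.77 to 1.03 and an unadjusted limma p of 0.1098, and the exact permutation p within the sets was 0.1. Within the 5 arrays it was -0.20 and within the 2 arrays -0.07. Without reconSCID replicate 2 and with no block it was -0.07, and without reconRAG1KO replicate 4 it was -0.32.

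Pmp22 and Cnp were thus the 2 of 6 members whose groups kept one order within both array sets without overlap, Pmp22 higher and Cnp lower. Of all probe sets 7.81% did so as higher, 8.55% as lower and 16.4% in either direction. Over the 7 arrays as one, 0 of 6 members had groups that did not overlap, beside 2.09% of probe sets as higher, 1.43% as lower and 3.52% in either direction.

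**Figure D3:**
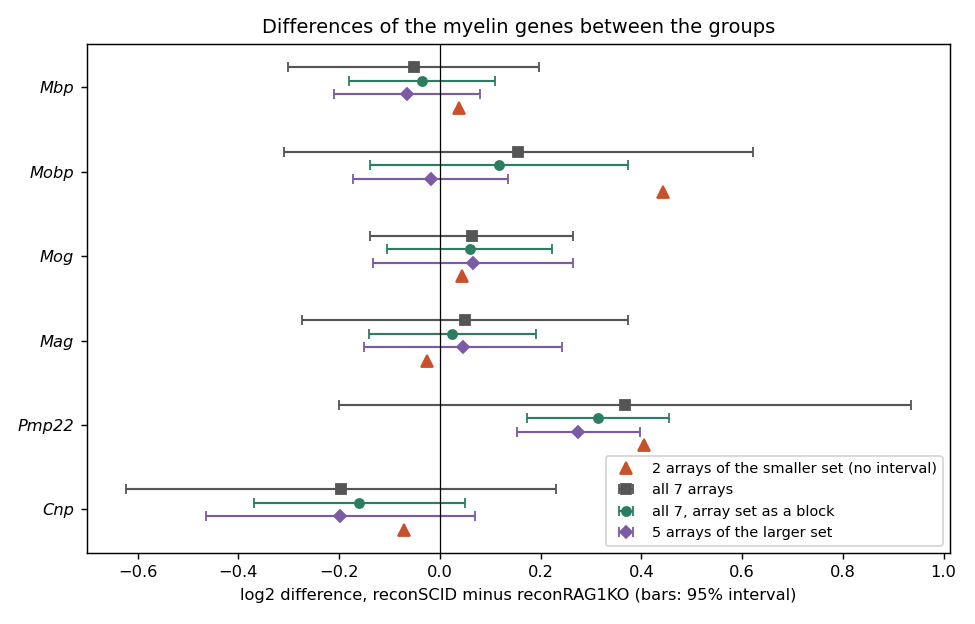
Log2 difference of each myelin gene, reconSCID minus reconRAG1KO, over all 7 arrays (grey), with the set as a block (green) and within the 5 arrays of the larger set (purple), each with its 95% interval, and within the 2 arrays of the smaller set (red, no interval). The intervals of Pmp22 with the block and within the 5 arrays lie above 0, and every other interval drawn includes 0.

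Mbp, a classical antigen of experimental encephalomyelitis, showed a difference smaller than the spread within either group. Its probe set (10457022) had intensities of 293, 288, 271 and 239 in reconRAG1KO replicates 1 to 4 and of 274, 245 and 269 in reconSCID replicates 1 to 3. The lowest value of each group again came from the smaller array set, and the groups overlapped. The log2 level of Mbp was 8.09 ± 0.13 (SD, n = 4) and 8.04 ± 0.08 (SD, n = 3), and the difference was -0.05 ± 0.10 (SE). The fold interval ran from 0.81 to 1.15 over all arrays and from 0.88 to 1.08 with the set as a block, where the difference was -0.04. It was -0.07 among the 5 arrays and 0.037 inside the smaller set, so its direction was not shared, and a change of Mbp within these bounds would not have been seen. The exact permutation p was 0.5714.

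Mog, Mobp and Mag had means below the median of all probe sets, unlike Mbp, Pmp22 and Cnp. As a guide to the low end of the array, 1027 olfactory receptor genes, of which little expression is expected here, had a median log2 level of 4.19 and a 95th percentile of 6.05. The means of Mobp (5.66) and Mag (5.65) lay under that percentile and the mean of Mog (6.33) above it. The deposited table gives no detection call and probe sets differ in how strongly they bind, so these levels do not show whether the transcripts were present, and a fall in them would be hard to see.

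Mog, the antigen whose peptides are widely used to induce encephalomyelitis in NOD mice, had intensities of 81.5, 81.5, 72.6 and 81.5 in reconRAG1KO replicates 1 to 4 and of 80.3, 84.0 and 83.9 in reconSCID replicates 1 to 3 (probe set 10450845). An identical value was deposited for 3 of the 4 reconRAG1KO samples, so their true spread may be larger than it looks. The log2 level of Mog was 6.31 ± 0.08 (SD, n = 4) and 6.37 ± 0.04 (SD, n = 3), and the difference was 0.06 ± 0.08 (SE). The fold interval was 0.91 to 1.2 over all arrays and 0.93 to 1.17 with the block, and the exact permutation p was 0.2857. Mog was also the member that differed least between the array sets, by 0.05.

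Mobp was high in 1 sample. Its intensities were 47.3, 47.3, 44.5 and 54.8 in reconRAG1KO replicates 1 to 4 and 44.3, 74.6 and 47.3 in reconSCID replicates 1 to 3 (probe set 10590269), and the deposited value of 3 of the 7 arrays was identical. Only reconSCID replicate 2 lay above the reconRAG1KO range. The log2 level was 5.60 ± 0.13 (SD, n = 4) and 5.75 ± 0.41 (SD, n = 3), and the difference was 0.16 ± 0.20 (SE) with an exact permutation p of 0.6857. Without reconSCID replicate 2 the difference of Mobp was -0.08. It was -0.02 within the 5 arrays and 0.44 within the 2 arrays, so the sign depended on the smaller set.

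Mag had intensities of 43.1, 48.8, 47.8 and 58.9 in reconRAG1KO replicates 1 to 4 and of 47.1, 57.9 and 49.0 in reconSCID replicates 1 to 3 (probe set 10562152), and the highest of each group came from the smaller array set. The reconSCID values lay inside the reconRAG1KO range. The log2 level of Mag was 5.63 ± 0.19 (SD, n = 4) and 5.68 ± 0.16 (SD, n = 3), and the difference was 0.05 ± 0.14 (SE), with a fold interval from 0.83 to 1.30 over all arrays and from 0.91 to 1.14 with the block. The exact permutation p was 0.7143. Without reconSCID replicate 2 the difference was -0.04, and without reconRAG1KO replicate 1 it was -0.01.

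In 5 of the 6 members, Mog excepted, the difference between the array sets was larger in size than that between the groups. Adjusted for group, the 2 arrays exceeded the other 5 by 0.65 in Pmp22 (limma adjusted p = 0.00121), by 0.46 in Mobp (limma adjusted p = 0.02374) and by 0.31 in Mag (limma adjusted p = 0.02144). They lay below the other 5 in Cnp, with a difference of -0.43 (limma adjusted p = 0.01521). Mbp had a difference of -0.20 (limma adjusted p = 0.05446) and Mog of 0.05 (limma adjusted p = 0.6417). Thus 4 of the 6 differed between the sets, beside the 40.0% of all probe sets. Beside this, the median difference between the sets was 1.24 in 8 cortical epithelial markers and 1.07 in fibroblast markers. It was 0.95 in endothelial and 0.90 in general epithelial markers. Among immune cells it was -0.93 in 11 thymocyte markers and -0.90 in dendritic cell and macrophage markers. The cortical epithelial sum was 8420 in reconRAG1KO replicate 4 and 4340 in reconSCID replicate 2, against 3000 to 3350 in the other 5 arrays. The part of these cells in the values of the myelin genes was not tested.

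Genes whose profile over the 7 arrays was nearest to that of Mbp, Pmp22 or Cnp were sought among 11153 genes above the median level, by the root mean square distance between deviations from each gene's mean. For Mbp these were Ubxn6 (distance 0.01) and Frmd4a (0.02), against a spread of Mbp itself of 0.10. Pmp22 was nearest to Dapk1, a death-associated protein kinase gene, at 0.09 and to Lurap1 at 0.09, against its own spread of 0.34. The blocked log2 differences of Dapk1 and Lurap1 were 0.26 and 0.19. Both were picked for nearness to Pmp22 over these same arrays, so a likeness to its group difference follows from the choice. Cnp was nearest to the translation initiation genes Eif4h and Eif2b4, at 0.04 each, against its own spread of 0.23. All these profiles share the step between the array sets, so they describe 7 arrays and no more.

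Other genes of myelin lay on both sides of 0. Of 17 listed further myelin proteins 13 were measured, only 4 of them above the median of all probe sets, and 8 were higher and 5 lower in reconSCID, with a median log2 difference of 0.04. Within the 5 arrays 5 were higher and 8 lower, with a median of -0.02. Within the 2 arrays 7 were higher and 6 lower, with a median of 0.06. Over the 13, 0 were called after adjustment, 0 higher and 1 lower had an unadjusted p under 0.05 (2.20% and 1.13% of all probe sets), and with the set as a block 2 were higher and 2 lower at that level (6.53% and 5.77%). Gpm6b, a relative of the main proteolipid of myelin, measured 6.68 ± 0.23 (SD, n = 4) and 6.93 ± 0.26 (SD, n = 3), with a blocked difference of 0.21 (interval 0.0039 to 0.42). The blocked differences of Hapln2, Cldn19 and Mal, proteins of the node matrix, the Schwann cell tight junction and the myelin raft, were 0.07, 0.07 and -0.02. Pmp2, the fatty acid binding protein of peripheral myelin, was the 1 with an unadjusted p under 0.05 without the block and is named after its value was seen, as it lay below the median level, with means of 5.45 and 5.06 and a difference of -0.40.

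Among enzymes of myelin lipids and transcription factors of myelin-forming glia 0 were called. Of 8 lipid genes 1 was higher and 7 lower, with a median log2 difference of -0.07. That direction was the one of the smaller array set, where 7 of 8 were lower, with a median of -0.30, while 5 of 8 were higher within the 5 arrays, with a median of 0.04. Elovl7, which lengthens fatty acids, had intensities of 138, 142, 138 and 259 in reconRAG1KO against 110, 168 and 107 in reconSCID. It lay lower in reconSCID within both array sets, with a blocked difference of -0.44 (interval -0.62 to -0.26) and a limma adjusted p of 0.2334. The deposited values of Elovl7 in reconRAG1KO replicates 1 and 3 were identical, so the true spread may be larger than it looks. The other named lipid genes were Cers2, Elovl1 and Gltp, with blocked differences of -0.17, -0.04 and -0.03. They differed by -0.79, -0.30 and -0.41 inside the smaller set and by 0.09, 0.06 and 0.13 among the 5 arrays. Of 18 transcription factor genes 10 were higher and 8 lower, with a median of 0.03. Among them Zeb2, also used in immune cells, had a blocked difference of 0.46 (interval -0.07 to 0.99), Egr2, the regulator of Schwann cell myelination, 0.20 (interval -0.12 to 0.53), Olig1 -0.13 and Zfp24 -0.06. Inside the smaller set Zeb2 and Egr2 were lower in reconSCID, by a log2 difference of -0.20 and -0.24, and among the 5 arrays higher, by 0.74 and 0.39.

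Genes of the contact and signalling between axon and glia were lower in reconSCID in 18 of 26 cases, with 0 called. Of 27 listed 26 were measured, 8 of which were higher, and the median log2 difference was -0.09, and the blocked median -0.11. With the block 8 lower and 1 higher had an unadjusted p under 0.05 (5.77% and 6.53% of all probe sets), and 0 did without it. Erbb3, the receptor through which neuregulin acts on Schwann cells and which epithelia also make, had intensities of 198, 207, 193 and 268 in reconRAG1KO against 173, 199 and 105 in reconSCID. Its blocked difference was -0.52 (interval -0.94 to -0.10), with a limma adjusted p of 0.3335. The neuregulin gene Nrg1, the sialyltransferase gene St3gal3, whose product helps to form ligands of Mag, and Epb41l3, a membrane skeleton gene, had blocked differences of -0.20, -0.22 and -0.38. General epithelial markers, as given above, had a blocked median of -0.55, and their part in this list was not tested.

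Summed markers of myelin-forming cells themselves overlapped between the groups. Of 12 Schwann and neural crest markers 10 were measured, 6 of them above the median of all probe sets, and they summed to 1180 to 1540 in reconRAG1KO and 1100 to 1470 in reconSCID, with 4 higher and 6 lower with the block. Sox10, the main regulator of Schwann cells and oligodendrocytes, had log2 means of 7.11 and 6.93. Cdh19, a Schwann cell cadherin, stood at 3.37 and 3.38, within the lower part of the olfactory receptor genes. Oligodendrocyte markers, 7 of 8 measured and 2 above the median, summed to 467 to 577 and 439 to 588.

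Other autoantigens of the nervous system, 11 measured of 13 listed, had 3 higher and 8 lower and a median log2 difference of -0.02, with 0 called. Pmp2, Omg, Cldn11, Nfasc and Cntn2 among them were also counted in the lists above. At an unadjusted limma p under 0.05 there were 0 higher and 1 lower (2.20% and 1.13% of all probe sets). With the block there were 1 higher and 2 lower (6.53% and 5.77%). Cryab, a small heat shock protein also studied as a target in multiple sclerosis, had a blocked difference of -0.40 (interval -0.81 to -0.0048). The neurofilament gene Nefl had one of -0.31, Nfasc, an adhesion protein of the node, -0.31, and the potassium channel gene Kcnj10 0.24 (interval -0.33 to 0.80). Kcnj10 differed by 0.56 among the 5 arrays and -0.54 inside the smaller set, and Nefl by -0.44 and 0.026.

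The 7 butyrophilin relatives of Mog measured, of 9 listed, stayed between -0.13 and 0.07, with a median of -0.01 and 0 called, and Btnl2, Btnl9 and Ermap had blocked differences of -0.15, 0.07 and -0.01. Of the 7 Siglec relatives of Mag, which mark B cells and myeloid cells, 5 were higher and 2 lower, with a median of 0.18 and 0 called. Within the 2 arrays the direction was turned, with 5 of the 7 lower and a median of -0.14. Siglecg, an inhibitory receptor of B cells, had intensities of 164, 164, 146 and 105 in reconRAG1KO against 212, 143 and 221 in reconSCID. Its blocked difference was 0.46 (interval 0.29 to 0.62), with a limma adjusted p of 0.2334, and it was 0.46 within the 5 arrays and 0.45 within the 2 arrays. The deposited values of Siglecg in reconRAG1KO replicates 1 and 2 were identical, so the true spread may be larger than it looks. The other B cell Siglec, Cd22, had a blocked difference of 0.57 (interval -0.17 to 1.32), Cd33 0.35 and Siglech 0.19. These rest on the 5 arrays, as inside the smaller set the differences were -0.14 in Cd22, -0.10 in Cd33 and -0.17 in Siglech. The summed B cell markers given above, which include Cd22, were also higher in reconSCID within each set. Their part in these differences was not tested. Siglech is itself among the dendritic cell and macrophage markers.

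**Figure D4:**
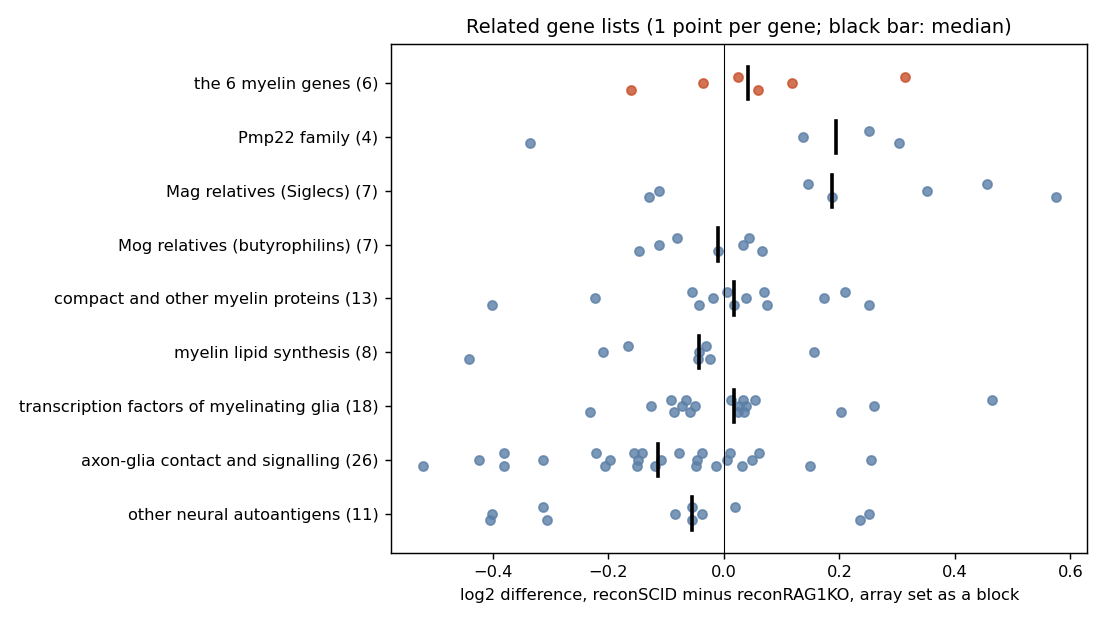
Log2 difference, reconSCID minus reconRAG1KO with the set as a block, of the 6 myelin genes (red) and of the measured genes of 8 related lists (blue), 1 point per gene with the number of genes after each name and a black bar at the median. The myelin genes lie between -0.16 and 0.31, and the medians of the lists between -0.11 and 0.19. Genes on more than one list are drawn in each, and none of the points passed after adjustment.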

How the data were processed

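RNA of sorted cells was labelled by the Affymetrix protocol from 6 µg, per the labels. The deposited table holds linear intensity values of probe sets, which the authors had summarised and brought to a similar level by a method not given in the sources used here. Log2 was taken with no pseudocount. In 46.2% of the 34760 probe sets at least 2 arrays held the same value. Genes were named from the platform annotation (21640 probe sets with 1 symbol, 1321 with several, 11799 unnamed), with the probe set of highest mean per gene. Of the probe sets with 1 symbol, 21553 had a gene ID in the RefSeq table.

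All probe sets entered 1 moderated linear model (limma 3.58.1, R 4.3.3), with two-sided p-values adjusted by Benjamini-Hochberg and a threshold of 0.05. Intervals are 95% intervals of that fit. Differences are reconSCID minus reconRAG1KO. From each list up to 4 genes with the smallest unadjusted p above the median level were named, and 2 nearest profiles per member above it. Exceptions are marked, and values of Sox10, Cdh19, Emp and Lim2 genes were added as markers or family. The members, lists, tests and alternatives were chosen with earlier results of these data known. The smaller array set was found by clustering array correlations, and labels name no batch.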

Additional observations from a re-analysis of the deposited data

Results flagged for a closer look

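Pmp22 in reconRAG1KO replicate 4 stood far from the other samples of its group. Its gap to the nearest of them was 0.884 of the range of the 4 samples on the log2 scale, above the 95% critical value of Dixon's test. This is an array of the smaller set, in which reconSCID replicate 2 was also the highest of its group. Mog in reconRAG1KO replicate 3 was set apart by the same test with a ratio of 1, which arises because the other 3 samples carried an identical value. Chance marks about 1 in 20 groups this way, and 6 genes were examined. Groups of 3 were not examined.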

How the results depend on the processing

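The sign of Mbp, Mog, Pmp22 and Cnp held under each alternative run, though within the 2 arrays alone, which allow no test, Mbp stood at 0.037, and 0 of the 6 genes were called under any. The lowest adjusted p of Pmp22 under any of them was 0.1602, with array weights, where its difference was 0.27. The weights were 0.16 for reconRAG1KO replicate 4 and 0.12 for reconSCID replicate 2, so that fit rests mainly on the 5 arrays of the larger set. Among those, reconSCID replicate 1 had a weight of 4.79 and reconSCID replicate 3 one of 0.799. Mobp turned to -0.045 with array weights and -0.018 within the 5 arrays. Without each sample in turn the differences ran from -0.079 to 0.30 in Mobp and from -0.039 to 0.14 in Mag, both lowest without reconSCID replicate 2. With the set blocked they ran from -0.018 to 0.19 in Mobp, lowest without either array of the smaller set, and from -0.014 to 0.046 in Mag, lowest without reconRAG1KO replicate 1. Array weights called 47 probe sets higher and 10 lower, where the other alternatives called 0, and none of these was a myelin gene. Deviations from the group means had correlations of 0.472, -0.508 and 0.314 between samples with replicate numbers 1, 2 and 3. The array set was not removed, and only the samples numbered 2 lay in different sets. This check therefore cannot show whether the samples were paired. With the replicate block, which leaves out reconRAG1KO replicate 4, the difference was 0.51 in Pmp22 and -0.32 in Cnp, with 0 calls. The filter on low values removed Mobp, Mog and Mag, and the mean of all probe sets equals the single one. Probe sets at low intensity limit what Mobp, Mag and Mog can show.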
